A study of Mus musculus with 25 samples.

Results

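The cells compared here were RasHIGH and RasLOW cells, 2 populations of one hepatic progenitor line that carry the oncogene H-Ras G12V at different mean levels. All 3 RasHIGH and all 3 RasLOW cultures of the series entered the comparison, 6 of its 25 samples, and all 24984 genes of the count table were considered, of which 11962 had enough counts to be tested. BMEL (bipotential mouse embryonic liver) cells are a clonal, untransformed line of C57B/6_C3H origin. The study transduced them with lentiviral vectors that express H-Ras G12V together with Venus or mCherry from a shared transcript, and sorted them by fluorescence into a weakly and a strongly expressing pool. Each population is thus a pool of cells with their own insertion sites and copy numbers, and by the study's description the oncogene levels of the pools overlap. The sample labels do not say which fluorescent protein the sequenced cultures carried. Every culture was kept on collagen in medium with serum, insulin, IGF-II and EGF without any treatment, and the labels describe all of them as growing exponentially. BMEL cells with an empty vector (BMEL WT, 3 cultures) are quoted for their levels only. As bulk libraries were sequenced, fewer cells of a kind and less RNA per cell cannot be told apart. The question was which genes differ between high and low oncogene dosage, given that the cultures within each group also differed in proliferation genes.

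Ras proteins are membrane-bound switches that, when loaded with GTP, recruit Raf kinases and so activate Mek and Erk. The G12V form stays loaded. Erk acts on transcription factors of the Ets and AP-1 families and induces immediate early genes within minutes, then delayed early genes, many of which encode phosphatases and Sprouty proteins that dampen the pathway. In liver progenitors the pathway also bears on proliferation and on the choice between the hepatocyte and bile duct fates.

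Total counts lay between 20818989 and 28205198 per library, so that 3 counts corresponded to 0.106 to 0.143 CPM (counts scaled to library size and composition). Mouse Hras, the counterpart of the transgene, was at 106, 50.8 and 91.9 CPM in RasLOW and 53.8, 84.6 and 75.5 CPM in RasHIGH cultures and at 88.9, 92.8 and 77 CPM in BMEL WT. The groups overlapped (log2 fold change -0.21, standard error 0.31, adjusted p = 0.891, from the quasi-likelihood fit of edgeR over all tested genes). The sources used here do not give how reads of the transgene were assigned, so this value neither checks the labels nor measures the oncogene. Hepatic progenitor identity was present in all 6 libraries: of 10 marker genes 9 were tested and none was called, with Krt19 at 52983 to 78111 and Hnf4a at 7496 to 12408 counts per library, while Epcam had at most 2 counts. Most defining markers of other cells were at or near 0. Ptprc, the pan-leukocyte marker, had 0 to 4 counts, Lyz2, Adgre1 and Cd3e 0 to 3, the 6 endothelial markers 0 to 1, and the hepatocyte gene Alb 0 to 1. Apoa1, also a hepatocyte gene, had 11 to 151 counts and the fibroblast gene Col1a1 13 to 176, the only member of each list that passed the filter. Among leukocyte markers Cd68 and Csf1r passed the filter, with 65 to 204 and 8 to 68 counts.

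Proliferation genes set 1 culture of each group apart. A proliferation score was taken as the mean log2(CPM + 1) over 60 genes, 30 of DNA replication (S phase) and 30 of mitosis (G2/M). The score was 6.95, 5.07 and 6.91 in RasLOW cultures 1, 2 and 3 and 4.24, 6.64 and 6.64 in RasHIGH cultures 1, 2 and 3. RasLOW culture 2 thus lay 1.86 below the mean of the other RasLOW cultures, and RasHIGH culture 1 lay 2.40 below the mean of the other RasHIGH cultures. Mki67, a marker of cycling cells, was at 285, 102 and 641 CPM in RasLOW and 49, 287 and 361 CPM in RasHIGH cultures. The labels give the same exponential growth for these low cultures as for the others. The low cultures carry neighbouring library identifiers (AL393 and AL392), and the labels do not say what an identifier stands for. In BMEL WT cultures the score lay between 6.54 and 6.67, so 4 of the 6 Ras cultures were near the control level. The groups themselves did not separate: the score was 6.31 ± 1.07 in RasLOW and 5.84 ± 1.39 in RasHIGH (SD, n = 3), a difference of -0.47 (two-sided exact permutation test over 20 groupings, p = 0.50, where the smallest possible p is 0.1). Without RasHIGH culture 1 the difference was 0.33. None of the 30 S phase and none of the 30 G2/M genes was called between the groups, where 2.12% of all tested genes were.

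**Figure D1:**
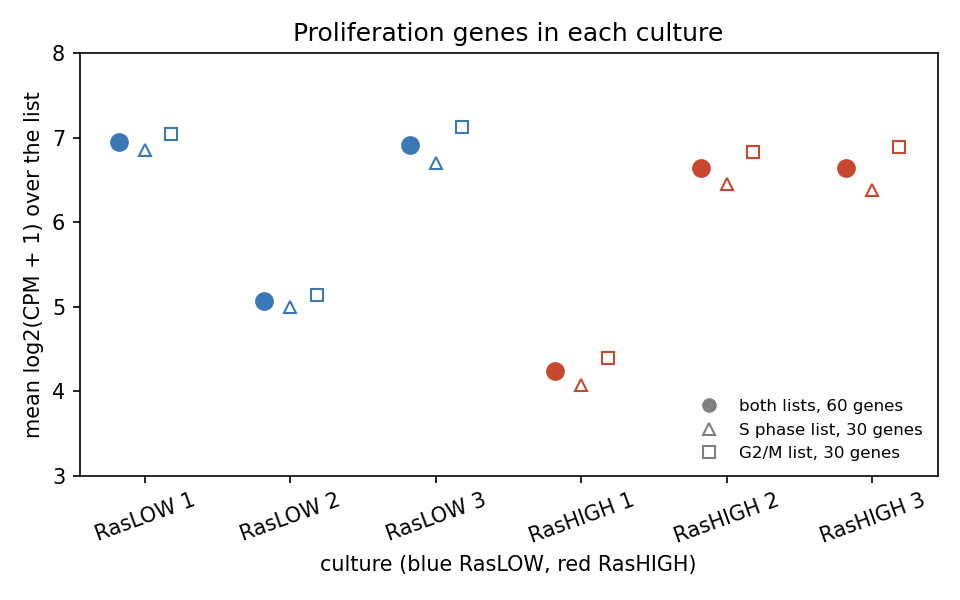
Mean log2(CPM + 1) over the proliferation genes in each of the 6 cultures, with filled circles for both lists together, triangles for the S phase list and squares for the G2/M list, in blue for RasLOW and red for RasHIGH. RasLOW culture 2 and RasHIGH culture 1 lie at 5.07 and 4.24, and the other 4 cultures lie between 6.64 and 6.95.

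This difference among cultures was the main source of variation within groups. After group means were removed, 65.1% of the variance of log2 expression lay on 1 component, in which RasLOW culture 2 and RasHIGH culture 1 stood against the other 4 cultures. When the score was added to the fit, 2973 of 11962 genes changed with it at an adjusted p under 0.05, of which 1607 rose and 1366 fell with the score. The 60 genes that make up the score are among them by construction and 2913 others are not. Immediate early genes, the first transcripts induced by growth factor and stress signals, were among those that fell with the score: 12 of 21 passed and all 12 were higher where proliferation genes were lower. Jund, an AP-1 subunit, was at 65.8, 139 and 73 CPM in RasLOW and 253, 85.6 and 78.9 CPM in RasHIGH cultures, highest in the low-score culture of each group. Egr1, a zinc finger immediate early factor that was chosen after its values were seen, was at 117, 820.4 and 112 CPM in RasLOW and 1208, 33.3 and 238 CPM in RasHIGH cultures. Of all tested genes 11.4% fell and 13.4% rose with the score. Of 21 liver lineage factors 7 fell and 0 rose, of 24 p53 targets 9 fell and 2 rose, and of 31 integrin, laminin and collagen genes 9 fell and 2 rose.

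Between RasHIGH and RasLOW cells 253 genes were called, where a call required a change of over 1.5 on the log2 scale, up or down, with p below 0.01 before adjustment. These are 2.12% of the genes tested. Of them 147 were higher (1.23%) and 106 lower (0.886%) in RasHIGH. The groups did not overlap in 251 of the 253 called genes and in 15.8% of all genes tested, and the limit on p itself favours genes without overlap. The median log2 fold change was 2.41 among the higher and -2.52 among the lower called genes, and -0.03 over all genes tested. A call requires a change of over 1.5, so nothing is read from this contrast. Adjusted p-values of the called genes ran from 0.0200 to 0.268, and only 9 genes (0.0752%) had an adjusted p under 0.05 in this fit, which had no block. A fit with library identifiers as blocks gave 238 such genes, and the labels do not say whether an identifier marks a batch. Its first block joined RasLOW culture 2 and RasHIGH culture 1, the low-score cultures. This fit and the fit with the proliferation score are therefore not independent of each other. With all 6 libraries 1170 genes had an unadjusted p under 0.05, 5.71% of those tested being higher and 4.07% lower.

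With the proliferation score as a covariate the same comparison called 325 genes (2.73% of 11902, the 60 score genes left out), 185 higher (1.55%) and 140 lower (1.18%). The adjusted p was under 0.05 for 244 genes (2.05%), 145 higher and 99 lower. All 9 genes with an adjusted p under 0.05 without the score also had one with it. The calls were shared for 241 genes, all with the same sign, 12 genes were called only without and 84 only with the score. Of the 253 called genes 25 (9.88%) changed with the score at an adjusted p under 0.05, where 24.9% of all genes tested did. A call without the score requires a small spread within groups, most of which lies along the score, so the call itself keeps such genes out and nothing is read from the lower share. The score was computed from the same 6 libraries and 3 residual degrees of freedom remained, so p-values with the score rest on very few cultures.

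**Figure D2:**
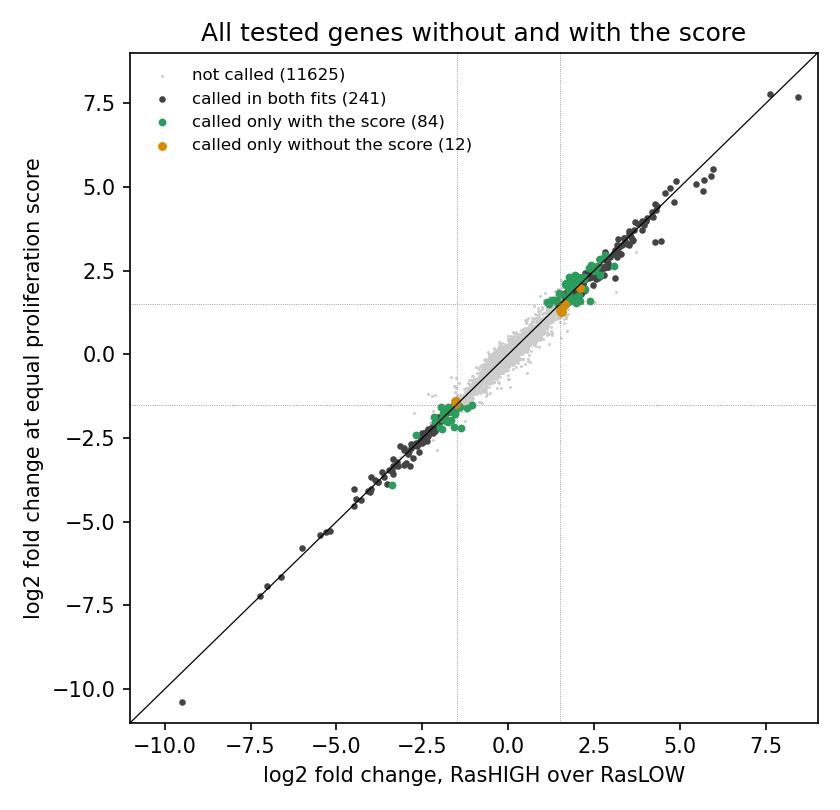
Log2 fold change of every tested gene, RasHIGH over RasLOW, without (x axis) and with (y axis) the proliferation score in the fit. Dotted lines mark 1.5 on either side and the solid line marks equality. The 241 genes called in both fits have the same sign in both, and 84 and 12 genes were called only with and only without the score.

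The fold changes were then read separately within the low-score cultures (RasHIGH culture 1 against RasLOW culture 2) and within the other 4 cultures. All 253 called genes differed in the same direction in both, against 66.1% of all genes tested, and a call itself favours such agreement since both differences enter the mean. In 88 of the 253 genes both differences exceeded 1.5 on the scale of log2(CPM + 1). The difference was larger within the low-score cultures for 174 of the 253 (68.8%), where 62.8% of all tested genes were, with 1 culture against 1 there and 2 against 2 elsewhere.

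**Figure D3:**
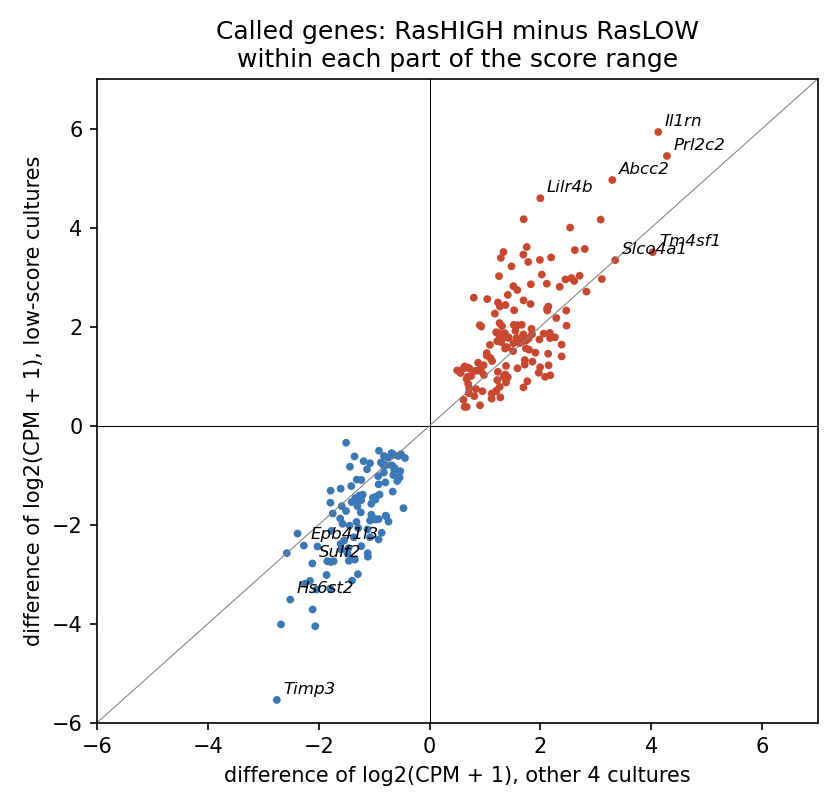
Differences of log2(CPM + 1), RasHIGH minus RasLOW, for the 253 called genes, within the 4 cultures with a score near the control level (x axis) and within the pair of low-score cultures (y axis), with the diagonal in grey. Red genes were called higher and blue genes lower in RasHIGH. All points lie in the quadrants of equal sign.

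The genes with the firmest difference were 7 higher and 2 lower in RasHIGH. Tmem132c, which encodes a transmembrane protein, was at 2.01, 2.3 and 1.42 CPM in RasLOW and 20.6, 17.4 and 19.1 CPM in RasHIGH cultures (log2 fold change 3.31, standard error 0.26, adjusted p = 0.02). Slco4a1, an organic anion transporter, was at 1.26, 1.52 and 0.819 CPM in RasLOW and 24.6, 27.1 and 14.2 CPM in RasHIGH cultures (log2 fold change 4.18, standard error 0.38, adjusted p = 0.02). Tm4sf1, a tetraspanin-like surface protein, was at 5.43, 3.36 and 2.11 CPM in RasLOW and 48.5, 90.9 and 56.8 CPM in RasHIGH cultures (log2 fold change 4.17, standard error 0.43, adjusted p = 0.0343). In each of these the lowest RasHIGH culture was several times above the highest RasLOW culture. Kif5c, a kinesin motor, was at 4.05, 3.79 and 7.11 CPM in RasLOW and 54.9, 43.2 and 34.1 CPM in RasHIGH cultures (log2 fold change 3.14, adjusted p = 0.0343), and Dlg3, a scaffold protein of cell junctions, was at 6.99, 6.59 and 4.96 CPM in RasLOW and 33.2, 30.2 and 35.4 CPM in RasHIGH cultures (log2 fold change 2.42, adjusted p = 0.02). Apoc2, the cofactor of lipoprotein lipase, was at 0.26, 0.142 and 0.216 CPM in RasLOW and 3.43, 3.32 and 3.52 CPM in RasHIGH cultures (log2 fold change 4.03, adjusted p = 0.0331). Neither the low-score culture of RasHIGH nor that of RasLOW stood apart in these 3 genes. Epb41l3, which links membrane proteins to the actin skeleton, fell from 6.25, 7.62 and 6.29 CPM in RasLOW to 0.605, 0.592 and 0.429 CPM in RasHIGH cultures (log2 fold change -3.61, standard error 0.32, adjusted p = 0.02). Sulf2, an extracellular sulfatase that trims 6-O-sulfates from heparan sulfate, was at 84.2, 105 and 67.2 CPM in RasLOW and 14.4, 16.2 and 17 CPM in RasHIGH cultures (log2 fold change -2.43, standard error 0.21, adjusted p = 0.02). Nlrc4, the remaining one of the 9, is described with the inflammasome genes. By the same test no gene had an adjusted p under 0.05 without RasLOW culture 2 or 3 or any one RasHIGH culture, with 764 to 1776 genes at an unadjusted p under 0.05, while 16 genes had one without RasLOW culture 1. All 9 genes were nevertheless called by fold change and unadjusted p without each library in turn.

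**Figure D4:**
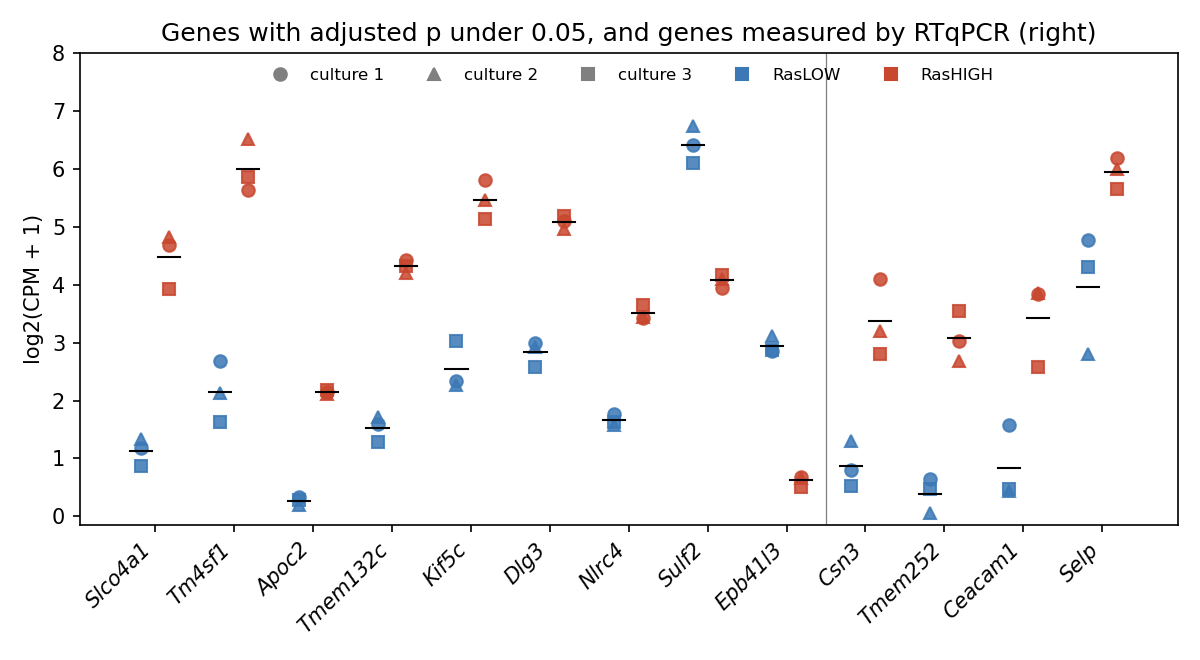
Level as log2(CPM + 1) in each culture of the 9 genes with an adjusted p under 0.05 (left of the line, by fold change) and of the 4 called genes of the RTqPCR panel, Ceacam1, Csn3, Selp and Tmem252 (right). Blue marks RasLOW, red RasHIGH, the symbol gives the culture number and bars are group means. No RasHIGH point lies within the RasLOW range for any of the 13 genes.

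The largest increases were in genes at or near the detection limit in RasLOW cells. Lilr4b, an inhibitory immunoglobulin-like receptor of myeloid cells, had 2 counts in all RasLOW libraries together and 765 in RasHIGH, at 24.8, 5.33 and 1.52 CPM in RasHIGH cultures 1, 2 and 3. The ratio of its summed counts, scaled for depth, was 442 (95% interval 122 to 3660, counting error only), and 30.5% of its 50-base stretches also occur in Lilrb4, so reads of these paralogs cannot be told apart with certainty. Prkcb, a protein kinase C isoform, had 3 and 188 counts (ratio 72.4, interval 24.4 to 354), and Akr1c18, a steroid dehydrogenase, had 3 and 160 counts (ratio 61.6, interval 20.7 to 302). In all 3 genes RasHIGH culture 1, the low-score culture, was highest. Abcc2, the canalicular exporter of bilirubin conjugates, was at 0.67, 0.744 and 0.129 CPM in RasLOW and 53.3, 22.3 and 6.81 CPM in RasHIGH cultures (log2 fold change 5.69, standard error 0.92, adjusted p = 0.0842), with the same order of RasHIGH cultures. The uncharacterised Gm10768 lies directly beside Abcc2 on chromosome 19 of mm9 (chr19:43913293-43915218, Abcc2 at chr19:43856682-43912441) and was at 0.0372, 0.213 and 0.0431 CPM in RasLOW and 13.8, 3.69 and 1.62 CPM in RasHIGH cultures. Gm12915 was at 0.112, 0.0708 and 0.172 CPM in RasLOW and 9.59, 4.96 and 1.57 CPM in RasHIGH cultures (log2 fold change 5.46, adjusted p = 0.0842).

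Among the other large increases, Rcan2, a regulator of calcineurin, was at 0.112, 0.0354 and 0.129 CPM in RasLOW and 0.927, 1.41 and 5 CPM in RasHIGH cultures (log2 fold change 4.69, adjusted p = 0.119), and Slc12a1, the sodium, potassium and chloride cotransporter of the kidney, was at 0.223, 0.177 and 0.0862 CPM in RasLOW and 1.33, 2.1 and 6.71 CPM in RasHIGH cultures (log2 fold change 4.33, adjusted p = 0.111). Both were highest in RasHIGH culture 3. Mmp10, a matrix metalloproteinase (stromelysin), was at 0.744, 0.638 and 0.216 CPM in RasLOW and 28.5, 3.83 and 3.62 CPM in RasHIGH cultures, with a log2 fold change of 4.45 without and 3.39 with the score. The call of Mmp10 ended without RasLOW replicate 3, where the log2 fold change was 4.09. Without RasHIGH replicate 1 the log2 fold change of Mmp10 was 2.80. Gc, the vitamin D binding protein secreted by hepatocytes, was at 0.595, 0.319 and 0 CPM in RasLOW and 14, 1.91 and 2.48 CPM in RasHIGH cultures (log2 fold change 4.27, adjusted p = 0.247), of which culture 1 of RasHIGH gave most. Gc stayed called only without RasHIGH replicate 2 or RasHIGH replicate 3 and lost its call without each other library, at log2 fold changes between 2.82 and 5.13.

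The largest decreases included secreted and matrix proteins. Cxcl12, a chemokine that attracts lymphocytes and progenitor cells, was at 1.30, 7.76 and 2.03 CPM in RasLOW and had no count in any RasHIGH library, at least 25.9-fold lower against a floor of 3 counts per library (adjusted p = 0.135 without and 0.0102 with the score). Timp3, an inhibitor of metalloproteinases bound to the matrix, fell from 61.3, 194 and 23.3 to 3.18, 4.14 and 5.43 CPM (log2 fold change -4.44, standard error 0.79, adjusted p = 0.103). Igfbp7, a secreted binding protein of insulin-like growth factors, was at 4.24, 21.6 and 10.8 CPM in RasLOW and 0.363, 0.683 and 1.1 CPM in RasHIGH cultures (log2 fold change -4.09, adjusted p = 0.103). For both genes RasLOW culture 2, the low-score culture, was highest, and every RasHIGH culture was far below every RasLOW culture. Col5a1, a fibril-forming collagen chain, was at 4.09, 3.54 and 1.72 CPM in RasLOW and 0.0403, 0.137 and 0.0476 CPM in RasHIGH cultures (log2 fold change -5.30, adjusted p = 0.0683). Chst11, a chondroitin sulfotransferase, had 170 counts over the RasLOW and 3 over the RasHIGH libraries (ratio 49.0, interval 16.5 to 240.0), and 4930486L24Rik, a gene without an assigned function in its name, had 173 and 2 (ratio 74.8, interval 20.4 to 623).

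Several regulators of phosphorylation were also among the largest decreases. Ppp2r2b, a regulatory subunit of protein phosphatase 2A, was at 1.79, 9.21 and 9.1 CPM in RasLOW and 0.161, 0.182 and 0.19 CPM in RasHIGH cultures (log2 fold change -5.19, standard error 0.75, adjusted p = 0.0842). Ptp4a3, a phosphatase of regenerating liver, was at 8, 14.1 and 3.23 CPM in RasLOW and 0.524, 0.683 and 0.333 CPM in RasHIGH cultures (log2 fold change -4.02, adjusted p = 0.0842). Ptprd, a receptor tyrosine phosphatase, was at 0.707, 1.63 and 1.55 CPM in RasLOW and 0, 0.0455 and 0.19 CPM in RasHIGH cultures (log2 fold change -4.01, adjusted p = 0.17). The call of Ptprd ended without RasHIGH replicate 2, where the log2 fold change was -3.76. Bcat1, the cytosolic branched-chain aminotransferase, was at 2.34, 9.07 and 5.47 CPM in RasLOW and 0.242, 0.0455 and 0.571 CPM in RasHIGH cultures (log2 fold change -4.28), and Lrch2, a scaffold protein with leucine-rich repeats, was at 1.49, 3.12 and 3.66 CPM in RasLOW and 0.121, 0.182 and 0.0476 CPM in RasHIGH cultures (log2 fold change -4.49). Bcat1 was at 0.262, 0.220 and 0.040 CPM in BMEL WT, so the RasLOW cultures lay above the control and the RasHIGH cultures near it. Cgas, the cytosolic DNA sensor that signals through Tmem173, was at 2.16, 0.425 and 1.68 CPM in RasLOW and 0.121, 0 and 0.0476 CPM in RasHIGH cultures (log2 fold change -4.49, adjusted p = 0.163). The call of Cgas ended without RasHIGH replicate 3, where the log2 fold change was -4.39.

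Called genes of innate sensing were all higher in RasHIGH cells, apart from Cgas, which is no member of the list described here. The Ifi200 family encodes DNA-binding proteins, of which Aim2 assembles an inflammasome on cytosolic DNA, while Naip and Nlrc4 proteins assemble one on bacterial proteins, and Tmem173 (Sting) relays the signal of Cgas. Of 24 genes listed 13 were tested, 7 were called higher and 0 lower, where 1.23% of all genes were called higher, and the median log2 fold change was 1.76 (1.56 with the score) against -0.03 over all genes. Among these 7 is Il1rn, an antagonist and not a sensor, which is described below. The list was chosen with earlier results of these data known, so its count of calls is not independent evidence. Nlrc4 was at 2.42, 1.98 and 2.11 CPM in RasLOW and 9.72, 9.93 and 11.6 CPM in RasHIGH cultures (log2 fold change 2.27, standard error 0.25, adjusted p = 0.0493), and the 3 cultures of each group lay close together. Aim2 was at 9.67, 16.5 and 8.75 CPM in RasLOW and 53.5, 55.7 and 48.9 CPM in RasHIGH cultures (log2 fold change 2.18, adjusted p = 0.0741 without and 0.00583 with the score). Mndal was at 8.22, 13.6 and 4.83 CPM in RasLOW and 51.9, 30.6 and 28.6 CPM in RasHIGH cultures (log2 fold change 2.06, adjusted p = 0.142). In Mndal the low-score culture was the highest of each group, and the gene also fell with the score. Naip1 was at 3.27, 4.5 and 1.21 CPM in RasLOW and 26.5, 17.5 and 14.5 CPM in RasHIGH cultures (log2 fold change 2.70, adjusted p = 0.109), and Tmem173 was at 11.7, 9.28 and 5.91 CPM in RasLOW and 41.2, 37.6 and 21.8 CPM in RasHIGH cultures (log2 fold change 1.90, adjusted p = 0.106). Mndal shares 28.0% and Naip1 22.6% of its 50-base stretches with other genes of its family, so their counts are uncertain to that extent.

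Il1rn, the secreted antagonist of the IL-1 receptor, was at 48.5, 7.12 and 7.8 CPM in RasLOW and 494, 378 and 349 CPM in RasHIGH cultures (log2 fold change 4.27, standard error 0.81, adjusted p = 0.119). Here RasLOW culture 1 lay well above the other RasLOW cultures and still far below every RasHIGH culture. Among 16 tested Toll-like and IL-1 receptor genes 1 was called, against 2.12% of all genes. This was Tlr4, the receptor of bacterial lipopolysaccharide, at 4.43, 5.06 and 4.05 CPM in RasLOW and 20.7, 20.7 and 12.2 CPM in RasHIGH cultures (log2 fold change 1.98, adjusted p = 0.0842). The list had a median log2 fold change of 0.60, and 7 of its members were higher with an unadjusted p under 0.05, where 5.71% of all genes were. Of 17 interferon-stimulated genes 2 were called, both higher, where 1.23% of all genes were called higher, and the list median was 0.01. Trim14, an adaptor of antiviral signalling, was at 5.69, 6.98 and 3.23 CPM in RasLOW and 25, 16.7 and 15.1 CPM in RasHIGH cultures (log2 fold change 1.83), and Usp18, a protease that removes Isg15, was at 0.223, 0.106 and 0.0862 CPM in RasLOW and 1.45, 1.46 and 0.476 CPM in RasHIGH cultures (log2 fold change 2.97). The call of Usp18 ended without RasLOW replicate 3 or RasHIGH replicate 2, where the log2 fold change was 2.74 and 2.74.

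Ligands and surface proteins read by immune cells differed in a few genes. Havcr2 (Tim-3), a checkpoint receptor known mainly from lymphocytes and myeloid cells, was at 3.39, 1.31 and 1.03 CPM in RasLOW and 40.4, 23.5 and 25.3 CPM in RasHIGH cultures (log2 fold change 3.95, standard error 0.51, adjusted p = 0.0741). In these libraries the leukocyte markers Ptprc, Cd3e and Adgre1 had 0 to 4 counts, Csf1r 8 to 68 and Cd68 65 to 204. Which cells gave the Havcr2 reads was not tested. Ceacam1, an adhesion molecule that inhibits NK cells, was at 1.97, 0.354 and 0.388 CPM in RasLOW and 13.3, 13.5 and 4.95 CPM in RasHIGH cultures (log2 fold change 3.53, adjusted p = 0.17), and 48.5% of its 50-base stretches are shared with Ceacam2. These were the only 2 of 17 NK cell ligand and checkpoint genes called, where 2.12% of all tested genes were, and the list median was 0.12. None of 16 genes of MHC class I presentation was called (median 0.11), against the same 2.12% of all genes. B2m, the invariant light chain of class I molecules, was at 127, 176 and 125 CPM in RasLOW and 249.6, 172 and 192 CPM in RasHIGH cultures, and H2-M3 and Psme2 had log2 fold changes of -0.92 and -0.49 that did not pass. Selp, a selectin, was at 26.4, 5.99 and 18.8 CPM in RasLOW and 72.1, 62.8 and 49.6 CPM in RasHIGH cultures (log2 fold change 1.85, adjusted p = 0.235). Selp stayed called only without RasLOW replicate 1 and lost its call without each other library, at log2 fold changes between 1.44 and 1.99.

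Of 18 chemokine and cytokine genes tested, 2 were called higher (1.23% of all genes) and Cxcl12 lower (0.886% of all genes). Cxcl5, a neutrophil attractant, was at 0.149, 0.354 and 0.302 CPM in RasLOW and 1.33, 0.911 and 3.52 CPM in RasHIGH cultures (log2 fold change 2.82, adjusted p = 0.192). Cxcl5 stayed called only without RasLOW replicate 2, RasHIGH replicate 1 or RasHIGH replicate 2 and lost its call without each other library, at log2 fold changes between 2.06 and 2.91. Csf2, which encodes the growth factor GM-CSF, was at 3.27, 1.49 and 1.72 CPM in RasLOW and 13.6, 3.01 and 11.3 CPM in RasHIGH cultures (log2 fold change 2.10, adjusted p = 0.266), and its groups overlapped. Csf2 stayed called only without RasLOW replicate 1 or RasHIGH replicate 2 and lost its call without each other library, at log2 fold changes between 1.74 and 1.96. With the score Csf2 was not called. Cxcl12, in contrast, was called without each library in turn.

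The proliferins, placental hormones of the prolactin family that cultured cells induce in response to growth factors, were higher in RasHIGH cells. All 3 tested genes of 6 listed were called higher, where 1.23% of all genes were. Prl2c2 (chr13:13088393-13097659 of mm9) was at 47.9, 7.9 and 1.98 CPM in RasLOW and 387, 201 and 273 CPM in RasHIGH cultures (log2 fold change 3.89, standard error 1.05, adjusted p = 0.239). Prl2c5 (chr13:13274982-13284190) was at 5.24, 0.708 and 0.388 CPM in RasLOW and 19.3, 18.1 and 21 CPM in RasHIGH cultures (log2 fold change 3.20, adjusted p = 0.254), and Prl2c3 (chr13:12883089-12892345) was at 0.521, 0.106 and 0.129 CPM in RasLOW and 1.85, 1.46 and 2.19 CPM in RasHIGH cultures (log2 fold change 2.83, adjusted p = 0.175). RasLOW culture 1 was the highest RasLOW culture in all 3. These neighbours on chromosome 13 are near-identical in part: 88.5% of the 50-base stretches of Prl2c2, 79.2% of Prl2c3 and 24.1% of Prl2c5 occur in other family members, so the 3 are not 3 independent measurements. Prl2c2 stayed called only without RasLOW replicate 1 or RasLOW replicate 3 and lost its call without each other library, at log2 fold changes between 3.52 and 4.09. Prl2c5 stayed called only without RasLOW replicate 1 and lost its call without each other library, at log2 fold changes between 2.71 and 3.24. The call of Prl2c3 ended without RasLOW replicate 3 or RasHIGH replicate 3, where the log2 fold change was 2.54 and 2.69. Without RasLOW replicate 1 the log2 fold changes of Prl2c2 and Prl2c5 were larger, at 5.85 and 5.13.

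In the core of the Ras pathway and among Erk targets no gene was called, in lists so short that the 2.12% of all genes called would give fewer than 1 each. Of 21 genes of the Ras, Raf, Mek and Erk list none was called (median 0.05), and 5 were higher with an unadjusted p under 0.05, against 5.71% of all genes. Rasa1, a GTPase-activating protein that switches Ras off, was at 61.4, 56 and 54.1 CPM in RasLOW and 88, 80.5 and 82.8 CPM in RasHIGH cultures (log2 fold change 0.55, adjusted p = 0.21), and Rasa2, of the same function, had a log2 fold change of 0.54 (adjusted p = 0.267). Rps6ka2, which encodes an Rsk kinase activated by Erk, was at 196, 145 and 162 CPM in RasLOW and 492, 295 and 236 CPM in RasHIGH cultures (log2 fold change 1.02, adjusted p = 0.252). The groups did not overlap in these 3 genes. Of 25 Erk feedback and delayed early genes none was called, with a median of 0.24.

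The study also measured several Erk target genes by RTqPCR, relative to parental BMEL cells. It reports that their signatures differed between RasLOW and RasHIGH cells. The RTqPCR values were not compared with the counts here. Of these genes Etv4, an Ets transcription factor, was at 116, 64.2 and 63.8 CPM in RasLOW and 142, 146 and 125 CPM in RasHIGH cultures (log2 fold change 0.76, adjusted p = 0.38). Every RasHIGH culture was above every RasLOW culture. The Ets factor Etv5 was at 36.8, 44.2 and 37.9 CPM in RasLOW and 49.7, 38.5 and 29.2 CPM in RasHIGH cultures, and the Erk phosphatase Dusp6 was at 461, 599.9 and 495 CPM in RasLOW and 724, 502 and 489 CPM in RasHIGH cultures. Log2 fold changes were -0.02 for Etv5, 0.14 for Dusp6, 0.59 for Dusp4, 0.15 for Spry2 and -0.43 for Phlda1, and the groups overlapped in all 5. Other members had lower values in every RasHIGH than in every RasLOW culture without being called: Epha2, a receptor tyrosine kinase, had a log2 fold change of -0.55 (adjusted p = 0.318) and Hbegf, a ligand of the EGF receptor, of -0.51 (adjusted p = 0.416). In the EGF receptor family none of 13 genes was called, where 2.12% of all genes were. Its ligand betacellulin (Btc) was at 122, 66.2 and 58.8 CPM in RasLOW and 217, 162 and 134 CPM in RasHIGH cultures (log2 fold change 1.05, adjusted p = 0.297), and Erbb3 had a log2 fold change of 0.94 (adjusted p = 0.478). None of 21 immediate early genes was called, against 2.12% of all genes, with a median of 0.05. Egr3 was at 17.7, 19.4 and 8.1 CPM in RasLOW and 69.4, 17 and 18.2 CPM in RasHIGH cultures, where RasHIGH culture 1 alone exceeded the RasLOW range.

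Of 23 tested effectors and regulators further from the core 5 were called higher and 4 lower, where 1.23% and 0.886% of all genes were. The list was chosen with earlier results known, and its contrast with the core was not tested. Rgl1, an exchange factor by which Ras activates Ral, was at 3.35, 6.38 and 7.89 CPM in RasLOW and 36, 31.8 and 21.4 CPM in RasHIGH cultures (log2 fold change 2.34, adjusted p = 0.0842). Inpp5j, a phosphatase of phosphoinositides, was at 7.33, 12.4 and 7.41 CPM in RasLOW and 48.2, 31.3 and 42.9 CPM in RasHIGH cultures (log2 fold change 2.17, adjusted p = 0.0775 without and 0.0054 with the score). Sh3bp2, an adaptor of tyrosine kinases, was at 3.46, 4.43 and 3.36 CPM in RasLOW and 16.4, 9.75 and 9.86 CPM in RasHIGH cultures (log2 fold change 1.68). The call of Sh3bp2 ended without RasHIGH replicate 1, where the log2 fold change was 1.41. Arap3, which acts on Arf GTPases and was chosen after its values were seen, was at 164, 61.8 and 64.1 CPM in RasLOW and 454, 398 and 337 CPM in RasHIGH cultures (log2 fold change 2.04). Called lower beside Ppp2r2b and Ptp4a3 were Akap12, a scaffold of protein kinases A and C, at 4.8, 15.5 and 7.46 CPM in RasLOW and 0.685, 0.82 and 1.24 CPM in RasHIGH cultures (log2 fold change -3.33). The study chose Ppp2r2b, Ptp4a3 and Akap12 on these samples as genes graded with the oncogene, so their direction is not independent evidence. All 15 genes that the study names as graded were called, 6 higher and 9 lower, and for the same reason that count is not independent. Of those not described elsewhere, AI467606 had a log2 fold change of 1.80, Dynap of 2.09, Tspan13 of 1.94, Pmp22 of -2.21 and Crip2 of -1.62. The call of Dynap ended without RasLOW replicate 3 or RasHIGH replicate 3, where the log2 fold change was 1.96 and 2.10. The call of Pmp22 ended without RasLOW replicate 3 or RasHIGH replicate 2, where the log2 fold change was -1.97 and -2.27. The call of Crip2 ended without RasLOW replicate 2 or RasHIGH replicate 1, where the log2 fold change was -1.49 and -1.36.

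Heparan sulfate and matrix genes changed in both directions. Of 24 heparan sulfate genes 2 were called lower and 1 higher, against 0.886% and 1.23% of all genes. Beside Sulf2, Hs6st2, a 6-O-sulfotransferase, fell from 71.9, 74.5 and 76.4 to 5.6, 8.93 and 16.4 CPM (log2 fold change -2.84, standard error 0.39, adjusted p = 0.0842), so that an enzyme that adds and an enzyme that removes 6-O-sulfate were both lower. Hs3st1, a 3-O-sulfotransferase, was at 13.7, 15.4 and 6.47 CPM in RasLOW and 48.2, 27.6 and 25.3 CPM in RasHIGH cultures (log2 fold change 1.504 without and 1.32 with the score, where it was not called). Hs3st1 stayed called only without RasLOW replicate 2, RasHIGH replicate 2 or RasHIGH replicate 3 and lost its call without each other library, at log2 fold changes between 1.18 and 1.62. Of 26 matrix protease and inhibitor genes 3 were called higher and 2 lower, against the same shares. Htra3, a secreted serine protease, was at 5.28, 7.79 and 5.52 CPM in RasLOW and 24.9, 28.6 and 14.3 CPM in RasHIGH cultures (log2 fold change 1.87), and Serpinb1a, an inhibitor of neutrophil proteases, was at 19, 16.5 and 9.14 CPM in RasLOW and 41.8, 66.2 and 38.5 CPM in RasHIGH cultures (log2 fold change 1.72). The call of Serpinb1a ended without RasLOW replicate 3 or RasHIGH replicate 2, where the log2 fold change was 1.47 and 1.43. Pcsk5, a proprotein convertase, was at 0.967, 2.3 and 3.28 CPM in RasLOW and 0.161, 0.182 and 0.286 CPM in RasHIGH cultures (log2 fold change -3.35), lower in all RasHIGH cultures like Timp3.

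Integrin, laminin and collagen genes had 2 of 31 members called higher and 4 lower, where 1.23% and 0.886% of all genes were (median -0.02). Itgb6, an integrin subunit of epithelia that activates TGF-beta, was at 10.6, 15.7 and 14.2 CPM in RasLOW and 1.49, 1.28 and 4.95 CPM in RasHIGH cultures (log2 fold change -2.38, adjusted p = 0.184). The call of Itgb6 ended without RasLOW replicate 3 or RasHIGH replicate 2, where the log2 fold change was -2.34 and -2.06. Itgb7, an integrin subunit known from lymphocytes, was at 75.2, 56.9 and 18.2 CPM in RasLOW and 134, 195 and 145 CPM in RasHIGH cultures (log2 fold change 1.66, adjusted p = 0.267). Itgb7 stayed called only without RasLOW replicate 1 and lost its call without each other library, at log2 fold changes between 1.26 and 1.78. Thbs1, which encodes thrombospondin 1 and is a Yap target, was at 28.5, 41.7 and 43.3 CPM in RasLOW and 7.14, 6.65 and 17.4 CPM in RasHIGH cultures (log2 fold change -1.85). The call of Thbs1 ended without RasLOW replicate 3 or RasHIGH replicate 2, where the log2 fold change was -1.74 and -1.62. Col1a1 had a log2 fold change of -2.07 (adjusted p = 0.267) at 13 to 176 counts per library, while its partner chain Col1a2 had no counts. Col1a1 stayed called only without RasLOW replicate 1 or RasLOW replicate 3 and lost its call without each other library, at log2 fold changes between -2.32 and -1.24. Tnxb, a tenascin, had a log2 fold change of 1.64. Tnxb stayed called only without RasLOW replicate 2 or RasHIGH replicate 3 and lost its call without each other library, at log2 fold changes between 1.30 and 1.60.

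Of 26 tested Wnt and Notch genes 2 were called higher and 4 lower, against 1.23% and 0.886% of all genes. The Notch ligands Dll1 and Dll4 were the 2 members called higher: Dll1 was at 1.41, 1.13 and 0.517 CPM in RasLOW and 16.7, 7.61 and 6.05 CPM in RasHIGH cultures (log2 fold change 3.29, standard error 0.54, adjusted p = 0.087) and Dll4 at 0.26, 0.0354 and 0.0862 CPM in RasLOW and 1.01, 2.6 and 1.52 CPM in RasHIGH cultures (log2 fold change 3.70, adjusted p = 0.135). Of the 4 members called lower, 3 were Wnt ligands. Axin2, a negative regulator and common readout of Wnt signalling, was at 1.56, 1.74 and 1.72 CPM in RasLOW and 0.202, 0.319 and 0.476 CPM in RasHIGH cultures (log2 fold change -2.32, adjusted p = 0.123). Wnt9a had a log2 fold change of -3.23, Wnt4 of -1.93 and Wnt7a, at 71.6, 71.6 and 45.6 CPM in RasLOW and 11.2, 19.8 and 33.6 CPM in RasHIGH cultures, of -1.54. None of these 3 ligands held its call without each library in turn. The call of Wnt9a ended without RasHIGH replicate 1 or RasHIGH replicate 2, where the log2 fold change was -2.77 and -3.03. Wnt4 stayed called only without RasLOW replicate 1, RasLOW replicate 3 or RasHIGH replicate 2 and lost its call without each other library, at log2 fold changes between -1.88 and -1.47. Wnt7a stayed called only without RasLOW replicate 3 or RasHIGH replicate 3 and lost its call without each other library, at log2 fold changes between -1.48 and -1.22. Over the 26 genes tested the median was -0.39.

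Inhbb, the beta B subunit of activin and inhibin, was the 1 called gene of 30 TGF-beta, BMP and activin genes (median -0.36), where 2.12% of all genes were called. It was at 0.744, 0.744 and 0.819 CPM in RasLOW and had no count in RasHIGH, at least 5.38-fold lower against the floor of 3 counts per library (adjusted p = 0.0842). The medians of this list and of the chemokine list were the same with Inhbb and Cxcl12 at these bounds. Among 21 liver lineage factors 2 were called, both lower and both at low levels, where 0.886% of all genes were called lower. Tbx3, a T-box factor of early liver buds, was at 0.856, 0.708 and 0.819 CPM in RasLOW and 0.161, 0.137 and 0.143 CPM in RasHIGH cultures (log2 fold change -2.39), and Lgr5, a receptor that marks activated progenitors, was at 0.484, 1.49 and 0.991 CPM in RasLOW and 0.202, 0.273 and 0.0952 CPM in RasHIGH cultures (log2 fold change -2.34). Lgr5 stayed called only without RasLOW replicate 1 and lost its call without each other library, at log2 fold changes between -2.68 and -1.91. Sox9, a factor of the bile duct lineage, was at 101, 101 and 56.9 CPM in RasLOW and 352, 162 and 136 CPM in RasHIGH cultures and was not called (log2 fold change 1.32, adjusted p = 0.291), though the groups did not overlap. Of 24 EMT and epithelial genes 1 was called, against 2.12% of all genes. This was Shroom3, which organises apical actin, at 31.5, 67.3 and 58.1 CPM in RasLOW and 12.7, 13.3 and 14.9 CPM in RasHIGH cultures (log2 fold change -1.94, adjusted p = 0.0842). Cdh1, the epithelial cadherin, was at 302, 436 and 279 CPM in RasLOW and 573, 347 and 387 CPM in RasHIGH cultures and overlapped. Yap and Tead targets had a median of -0.28 over 27 genes, of which 9 were lower with an unadjusted p under 0.05 (4.07% of all genes) and 1, Thbs1, was called (2.12% of all genes).

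Secreted and metabolic genes of the hepatocyte differed singly. Trf, which encodes transferrin, was at 154, 182 and 96.5 CPM in RasLOW and 1054, 535 and 294 CPM in RasHIGH cultures (log2 fold change 2.12 without and 1.79 with the score). Of 14 hepatocyte secreted genes 2, Trf and Apoc2, were called higher, where 1.23% of all genes were. The call of Trf ended without RasLOW replicate 3, where the log2 fold change was 1.90. Ugt1a7c, a glucuronosyltransferase, was at 2.27, 4.14 and 1.47 CPM in RasLOW and 39, 21 and 26.2 CPM in RasHIGH cultures (log2 fold change 3.44, adjusted p = 0.0741), with 72.2% of its stretches shared by other Ugt1a isoforms. With Abcc2 it made 2 genes called higher of 31 in the Nrf2, glutathione and detoxification list, where 1.23% of all genes were. Cbr1, a carbonyl reductase, was the 1 member called lower (0.886% of all genes), at 2.27, 3.54 and 1.94 CPM in RasLOW and 0.645, 0.0455 and 0.429 CPM in RasHIGH cultures (log2 fold change -2.77). Cbr1 stayed called only without RasHIGH replicate 1 or RasHIGH replicate 2 and lost its call without each other library, at log2 fold changes between -2.94 and -2.47. Sord, the sorbitol dehydrogenase, was at 44.1, 79.5 and 36.7 CPM in RasLOW and 268, 169 and 155 CPM in RasHIGH cultures (log2 fold change 1.88, adjusted p = 0.00512 with the score). It was the 1 called of 28 glycolysis and hypoxia genes, against 2.12% of all genes. None of 28 cholesterol and lipid synthesis genes was called, where 2.12% of all genes were. Their median was 0.39, with 5 higher at an unadjusted p under 0.05 (5.71% of all genes). Pmvk and Idi1 of the mevalonate pathway had log2 fold changes of 0.86 and 0.68.

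Lipid mediator and channel genes differed in single members. Hpgds, a prostaglandin D synthase, was at 0.707, 0.956 and 0.69 CPM in RasLOW and 5.68, 4.05 and 3.1 CPM in RasHIGH cultures (log2 fold change 2.44, adjusted p = 0.0842), and Pla2g7, which inactivates platelet-activating factor, was at 13.3, 9.32 and 5.69 CPM in RasLOW and 34.1, 36.3 and 51.1 CPM in RasHIGH cultures (log2 fold change 2.11). Pla2g16, a phospholipase of adipose tissue, was lower at 4.24, 4.04 and 6.55 CPM in RasLOW and 0.726, 1.37 and 1.38 CPM in RasHIGH cultures (log2 fold change -2.08). These were the 3 called of 13 tested, 2 higher and 1 lower, against 1.23% and 0.886% of all genes. Kcnn4, a calcium-activated potassium channel, was at 17.1, 8.75 and 2.67 CPM in RasLOW and 78.5, 63.4 and 43.2 CPM in RasHIGH cultures (log2 fold change 2.69), and Trpv4, a calcium channel, at 0.93, 2.02 and 1.03 CPM in RasLOW and 0.363, 0.0911 and 0.19 CPM in RasHIGH cultures (log2 fold change -2.59). The call of Kcnn4 ended without RasLOW replicate 2, where the log2 fold change was 2.63. The call of Trpv4 ended without RasHIGH replicate 2 or RasHIGH replicate 3, where the log2 fold change was -2.24 and -2.49. Pmaip1 (Noxa), a BH3-only protein that promotes cell death, was at 17.5, 27 and 17.9 CPM in RasLOW and 3.18, 3.6 and 5.9 CPM in RasHIGH cultures (log2 fold change -2.29, adjusted p = 0.0842). It was the 1 called gene both of 24 p53 targets and of 13 Bcl2 family genes, against 2.12% of all genes. The study chose Ceacam1, Csn3, Selp and Tmem252 because they were higher both in RasHIGH than RasLOW cells and in liver than peritoneal tumour cells. It measured them by RTqPCR in sorted tumour cells and in cultured cells. As the choice used these samples, their direction here is not independent evidence. Csn3, a milk casein, was at 0.744, 1.45 and 0.431 CPM in RasLOW and 16.1, 8.24 and 6 CPM in RasHIGH cultures (log2 fold change 3.51, adjusted p = 0.0842), and Tmem252 was at 0.558, 0.0354 and 0.388 CPM in RasLOW and 7.18, 5.42 and 10.7 CPM in RasHIGH cultures (log2 fold change 4.57, adjusted p = 0.087). Of 14 genes of G1 cyclins and Cdk inhibitors none was called, where 2.12% of all genes were. The D cyclins Ccnd1, Ccnd2 and Ccnd3 had log2 fold changes of -0.31, -0.78 and -0.61.

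**Figure D5:**
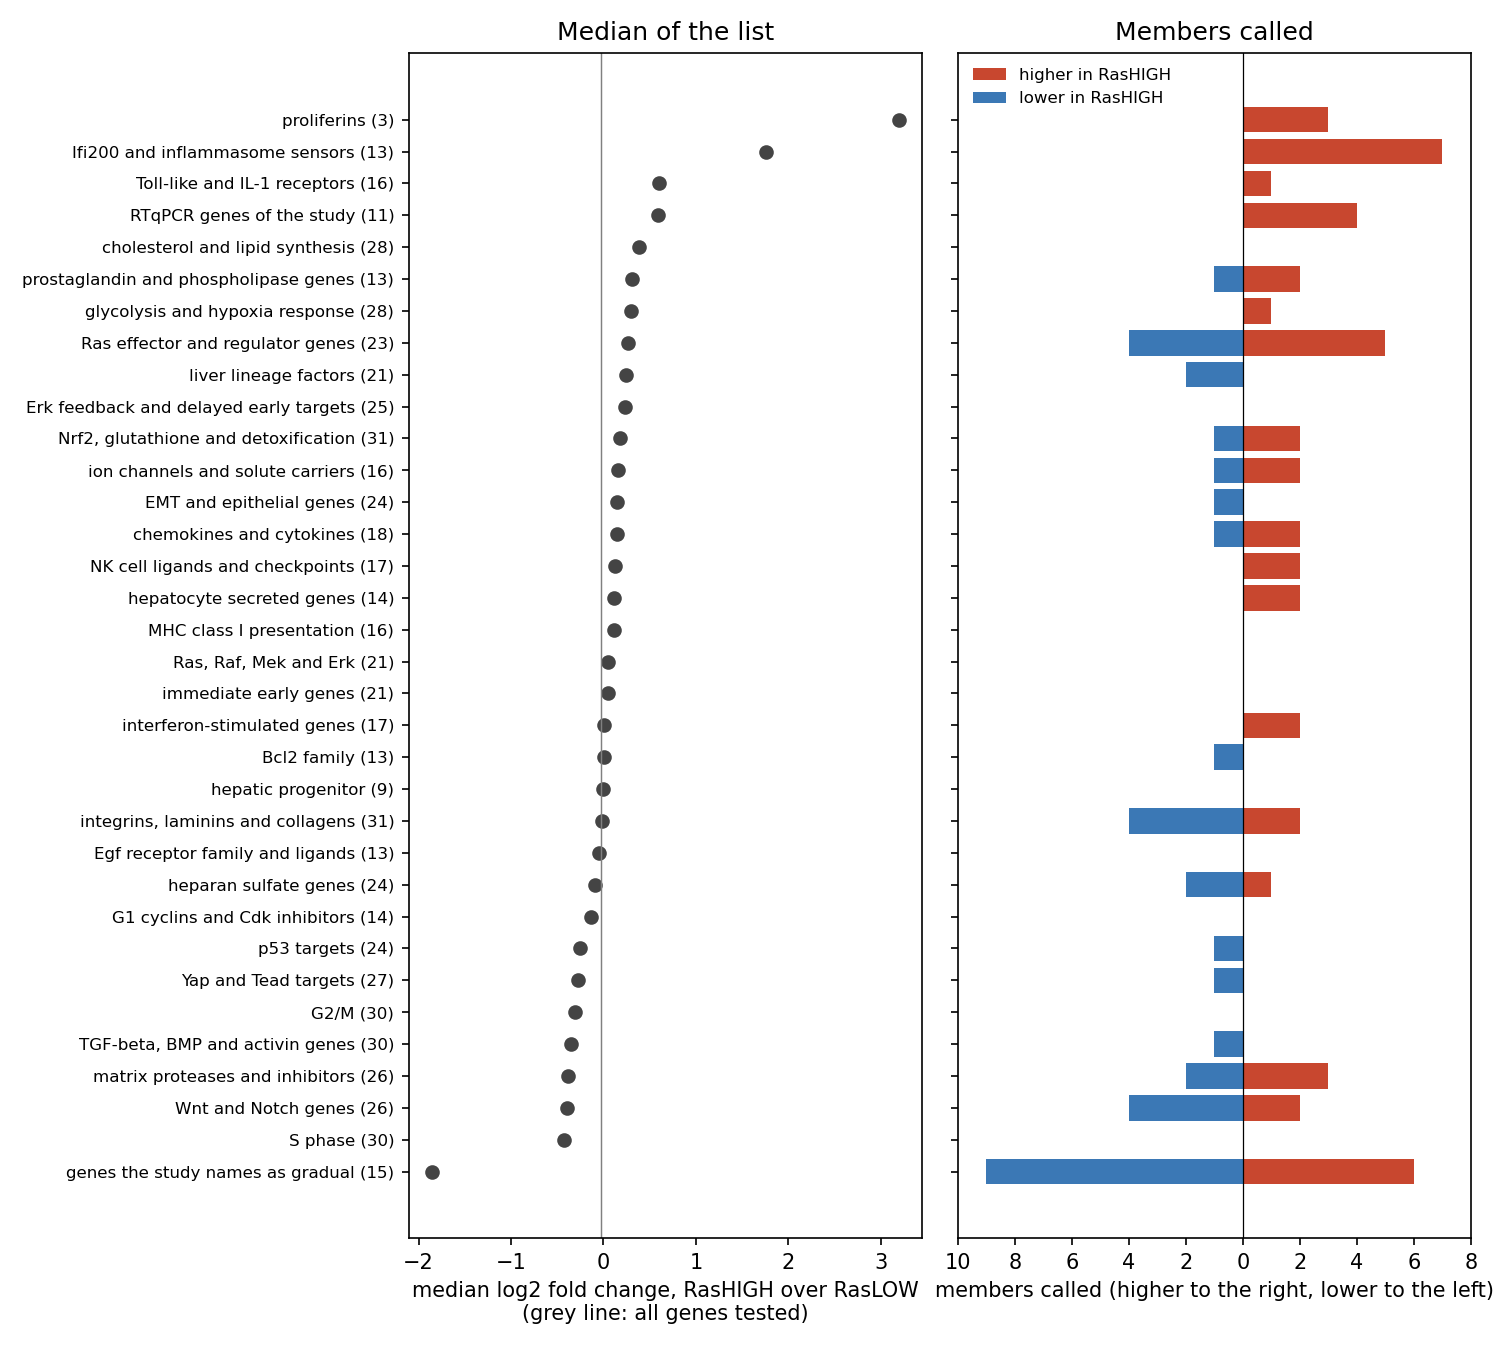
Left, median log2 fold change (RasHIGH over RasLOW) of each gene list with at least 3 tested members, the number tested in brackets and the median of all tested genes as a grey line. Right, numbers of members called higher (red) and lower (blue). The proliferins and the Ifi200 and inflammasome list lie highest, at 3.20 and 1.76, and the lists of Erk targets, immediate early genes and proliferation genes have no called member.

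The 6 genes described next were called only without the score and lay close to the threshold of 1.5. Csf2, described above, was also called only without it but lay further off, at 2.10 without and 1.98 with the score. Its unadjusted p with the score was 0.0112 by the quasi-likelihood F-test, above the limit of 0.01. Of the 12 called only without the score, Rin2, an effector of Ras that acts on Rab5, was at 35.9, 38.1 and 26.2 CPM in RasLOW and 140.3, 81.8 and 66.5 CPM in RasHIGH cultures, with a log2 fold change of 1.52 without and 1.33 with the score. Ogfrl1, Pitpnc1, Cdon, Adamts4 and Epas1 had log2 fold changes of -1.51, 1.58, -1.51, 1.54 and 1.53 without the score and -1.48, 1.38, -1.39, 1.40 and 1.27 with it. None of these 6 held its call without each library in turn. The call of Rin2 ended without RasLOW replicate 3 or RasHIGH replicate 1, where the log2 fold change was 1.38 and 1.17. Ogfrl1 stayed called only without RasLOW replicate 2, RasLOW replicate 3 or RasHIGH replicate 2 and lost its call without each other library, at log2 fold changes between -1.49 and -1.36. The call of Pitpnc1 ended without RasLOW replicate 3 or RasHIGH replicate 1, where the log2 fold change was 1.31 and 1.23. Cdon stayed called only without RasLOW replicate 1, RasLOW replicate 2 or RasHIGH replicate 3 and lost its call without each other library, at log2 fold changes between -1.43 and -1.24. Adamts4 stayed called only without RasLOW replicate 2 or RasHIGH replicate 3 and lost its call without each other library, at log2 fold changes between 1.29 and 1.54. Epas1 stayed called only without RasHIGH replicate 3 and lost its call without each other library, at log2 fold changes between 1.05 and 1.58.

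Of the 84 genes called only with the score, those named here also changed with the score itself at an adjusted p under 0.05. Gdf15, a stress-induced cytokine, was at 1.93, 12 and 3.62 CPM in RasLOW and 53.3, 11.5 and 11.4 CPM in RasHIGH cultures, with a log2 fold change of 2.10 (adjusted p = 0.482) without and 1.60 (adjusted p = 0.0213) with the score. Slc7a11, the cystine transporter, was at 8.59, 55.6 and 17.5 CPM in RasLOW and 212, 71.7 and 55.2 CPM in RasHIGH cultures (log2 fold change 2.04 without and 1.75 with the score, adjusted p = 0.0266 with it). In both genes RasLOW culture 2 and RasHIGH culture 1 were the highest of their groups, so the groups overlapped while the low-score culture of RasHIGH exceeded that of RasLOW. Creb5 was at 3.53, 6.8 and 2.24 CPM in RasLOW and 49.4, 9.56 and 7.71 CPM in RasHIGH cultures and Gfi1 at 0.223, 0.956 and 0.172 CPM in RasLOW and 5.36, 1.37 and 2.1 CPM in RasHIGH cultures, 2 transcription factors with log2 fold changes of 1.60 and 2.37 at equal score. Celsr2, a cadherin of planar polarity, and Cpeb1, a regulator of polyadenylation, were lower, at -1.99 and -2.01 with the score.

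Promoter sequence was read for the called genes because AP-1 and Ets factors are end points of the Erk pathway. RefSeq windows of GRCm38.p6, from 250 bases before to 50 after each annotated start, matched 9576 of the tested genes by Entrez identifier, 109 of those called higher and 78 of those called lower. The AP-1 motif TGANTCA, which reads the same on both strands, stood in at least 1 window of 24 of the 109 genes called higher (22.0%), of 4 of the 78 called lower (5.13%) and of 594 of all 9576 tested genes (6.20%). By windows the shares were 17.0%, 4.90% and 5.14%, and 7.81% of all 32851 windows held it. With the proliferation score in the fit the shares of genes were 20.6% of 136 called higher and 5.71% of 105 called lower. An Ets motif, CCGGAAGT, searched on both strands, stood in 1.26% of windows of genes called higher, 0% of those called lower and 8.34% of windows of tested genes. Other motifs were searched on both strands too. In windows of genes called higher, called lower and tested, the CRE motif TGACGTCA stood in 1.26%, 1.96% and 3.13%, and the TATA box TATAAA in 10.1%, 8.82% and 7.13%. The E2F motif TTTCCCGC stood in 0%, 1.96% and 2.06%, and its form GGCGGGAA in 1.26%, 0.98% and 4.02%. A serum response element motif stood in 0%, 0% and 0.0246%. These are matches of letters and not sites of binding, genes with several windows count once where shares are of genes, and no test was made.

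The stretches around the motif are shown for 7 genes described above that were called higher and for Bcat1, which was called lower, with the motif in capitals and up to 40 bases on each side, cut at the annotated start. They are given 5′ to 3′ in the direction of transcription, with coordinates of GRCm38.p6.
Mmp10, chr9:7502239-7502325, plus strand, motif starting 63 bases before the start: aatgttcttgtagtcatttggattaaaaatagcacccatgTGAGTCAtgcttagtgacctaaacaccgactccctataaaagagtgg
Il1rn, chr2:24336679-24336765, plus strand, motif starting 141 bases before the start: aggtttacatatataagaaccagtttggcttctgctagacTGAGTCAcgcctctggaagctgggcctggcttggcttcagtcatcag
Havcr2, chr11:46454691-46454777, plus strand, motif starting 200 bases before the start: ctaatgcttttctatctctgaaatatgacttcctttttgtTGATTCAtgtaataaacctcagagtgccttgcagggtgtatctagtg
Selp, chr1:164115085-164115171, plus strand, motif starting 139 bases before the start: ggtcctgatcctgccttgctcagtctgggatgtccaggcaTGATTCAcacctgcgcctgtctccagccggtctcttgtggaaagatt
Dll1, chr17:15376995-15377081, minus strand, motif starting 109 bases before the start: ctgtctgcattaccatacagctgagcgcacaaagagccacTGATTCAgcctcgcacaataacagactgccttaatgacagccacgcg
Prl2c3, chr13:12800242-12800328, minus strand, motif starting 209 bases before the start: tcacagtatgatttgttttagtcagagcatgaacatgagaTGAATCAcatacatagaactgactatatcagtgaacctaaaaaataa
Rcan2, chr17:43952934-43952998, plus strand, motif starting 25 bases before the start: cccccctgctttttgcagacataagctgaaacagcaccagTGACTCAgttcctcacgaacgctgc
Bcat1, chr6:145076158-145076221, minus strand, motif starting 24 bases before the start: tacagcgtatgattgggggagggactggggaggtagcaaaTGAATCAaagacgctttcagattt
In Mmp10 and Rcan2 the motif lay 63 and 25 bases before the start shown. In Prl2c3 and Havcr2 it lay 209 and 200 bases before the start. Il1rn, Dll1, Rcan2 and Bcat1 have other annotated starts too, whose windows held no AP-1 motif. Which start was used in these cells was not tested. Mndal and Tnxb, also called higher, held the motif and are not shown. The RasHIGH cultures exceeded every RasLOW culture in all 7 genes shown that were called higher, which the call itself favours. Bcat1 carried the motif and was lower in every RasHIGH culture. A link between the motif and expression was not tested.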

How the data were processed

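RNA of 6 cultures, 3 RasLOW and 3 RasHIGH, was sequenced. Per the study's methods, the authors prepared poly(A) libraries with the NuGEN Universal Plus mRNAseq kit, sequenced them on a HiSeq 2500, aligned reads to mm9 with TopHat2, and deposited raw counts per gene. The submitters' processing notes also name FastQC, Bowtie, mm8 and mm10. The counting tool, strand setting and annotation are not given in the sources used here. Columns were assigned to cultures by their labels.

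The deposited counts were tested with edgeR 4.0.16 (R 4.3.3): TMM factors of the 6 libraries, filterByExpr with a minimum count of 10, the two-sided quasi-likelihood F-test and Benjamini-Hochberg adjustment over all genes tested. A gene was called where it moved by over 1.5 on the log2 scale in either direction with p below 0.01 before adjustment. A second fit added the proliferation score as a centred covariate. Levels in CPM were scaled by TMM factors of the 9 cell line libraries. Counting intervals are exact at 95% and cover counting error only, as do floors of 3 counts. DESeq2 1.42.0 was an alternative. The scripts were tested on simulated data. Gene positions are those of mm9 (GENCODE vM1), and near-identical transcripts were sought as shared stretches of 50 bases.

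Genes named were in each direction the 12 called genes of largest change with at least 100 counts and no overlap, every gene with an adjusted p under 0.05, up to 6 called members (otherwise up to 3 by p) of each list, up to 6 genes called in only one fit, and the genes the study measured by RTqPCR or names as graded. Members and lists were chosen with earlier results of these data known. The labels number the cultures 1 to 3 in both groups. Deviations from group means of same-numbered cultures correlated at -0.523, -0.635 and 0.297, so the numbers were not taken to pair the cultures. The study describes the cultures as independent, and no batch is named in the labels.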

Additional observations from a re-analysis of the deposited data

How the results depend on the processing

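No called gene reversed its direction under any of 16 settings (the threshold on the adjusted p not among them), and 122 of the 253 remained called without each library in turn, 99 of them under all 16 settings. Leaving out 1 library gave 180 to 325 called genes, 93 to 201 higher (93 without RasLOW replicate 3) and 69 to 147 lower (69 without RasHIGH replicate 2). The 9 libraries in one fit called 171 lower. With an adjusted p under 0.01 in place of the unadjusted one, 0 genes were called without the score (1170 had an unadjusted p under 0.05 by edgeR) and 23 with it. The count of genes with an adjusted p under 0.05 moved most: 0 to 16 without 1 library, 77 without a filter on low counts, 419 by DESeq2, 331 by edgeR's exact test, 101 with all 9 libraries, 244 with the proliferation score and 50 without both low-score cultures, a setting chosen after seeing the data. With the replicate number as a block it was 0 (789 at an unadjusted p under 0.05), and 216 genes were called, 188 of them among the 253. A block by library identifiers gave 238, with 325 called. It put both low-score cultures in the same block, so it is not independent of the score. Deviations correlated at 0.679 and 0.336 in the pairs with neighbouring identifiers and at 0.299 in the remaining pair, whose identifiers are not neighbours, which is a hint from the data and not the design. The score difference ran from -1.09 to 0.33 without 1 library and was reversed, at 0.33, without RasHIGH replicate 1. Among genes that were not called, the log2 fold change turned its sign for Ccnf (0.0395 with the score) and Spry2 (-0.0403 without both low-score cultures). Without 1 library it ran from -1.462 to 0.0151 for Csf1r and from -0.469 to 0.00667 for Hras (both turned without RasLOW replicate 1), from -1.004 to 0.278 for Mki67 (RasLOW replicate 3), and from -0.207 to 0.168 for Etv5 (RasLOW replicate 2, 0.0619, or RasHIGH replicate 3). Without RasHIGH replicate 1 Ttk, Egr2, Jund and Dusp6 turned, in ranges of -0.900 to 0.0167, -0.668 to 4.004, -0.151 to 0.990 and -0.0432 to 0.255. The cause of these changes was not tested. Depth limits 36 called genes, which had under 100 counts over the 6 libraries.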

Other observations

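Against BMEL WT, whose levels entered no test here, 135 of the 147 genes called higher had RasHIGH values above every control culture, and 105 of the 106 called lower had RasHIGH values below every control culture. Of all genes tested 21.9% lay above and 19.9% below every control culture in this way. The mean of RasLOW was above that of BMEL WT in 92 of the 147 and below it in 90 of the 106. The control values were not used to choose the called genes, but the RasHIGH and RasLOW values were. The choice itself therefore favours these counts, and nothing is read from them. Timp3 was at 461, 260.5 and 222 CPM in BMEL WT, above every RasLOW culture, and Bcat1, at 0.262, 0.220 and 0.040 CPM, was below every RasLOW culture.

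RasLOW culture 1 was the highest RasLOW culture in 73 of the 147 genes called higher (49.7%), against 33.2% of all genes tested. RasLOW culture 2 was highest in 67 of them, against 43.6% of all genes, and RasLOW culture 3 in 7. RasHIGH culture 1 was the highest RasHIGH culture in 85 of the 147 (57.8%), against 46.0%. The calls depend on these same values, so nothing is read from the orders.

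Of 244 called genes with a position in mm9, 21 lay in 10 runs of neighbouring tested genes called in the same direction. Beside the proliferins these were pairs, among them Abcc2 with Gm10768, Il1rn with Psd4, Havcr2 with Sgcd and Calcrl with Tfpi, all higher, and Col5a1 with Ppp1r26, lower. Only tested genes counted as neighbours, so spans reached 569 kb for Col5a1 with Ppp1r26 and 1530 kb for Havcr2 with Sgcd. How many such runs any equal number of tested genes would give was not computed, so nothing is read from this count.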
